A study of Rattus norvegicus with 28 samples.

Results

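The genes that carry secretory proteins into the endoplasmic reticulum (ER) and between it and the Golgi were described in NRK-49F cells, which are fibroblasts of a line made from normal rat kidney. They were taken by symbol from the table of gene expression: the Sec61 channel with Sec62 and Sec63, the signal recognition particle (Srp), the translocon-associated complex (Ssr1 to Ssr4) and the signal peptidase subunits Sec11a and Sec11c, the COPII coat with Sec16, Sar1b and Mia2, the COPI coat subunits, the p24 proteins (Tmed), the KDEL receptors and the Sec22 proteins. No gene was listed as Copb2, Copg1, Sar1a or Mia3, so these parts of the coats and exit sites are missing here. The rule found 54 genes of 30178 in the table. Of these, 17 act in targeting and translocation, 14 belong to the COPII coat and its regulators, 14 are p24 proteins or KDEL receptors, 6 are COPI coat subunits and 3 are Sec22 proteins. A gene was tested if it reached 1 FPKM (fragments per kilobase of gene, scaled to library size) in at least 2 of the 8 libraries, and 51 of the 54 genes passed, as did 12315 of all genes. Tmed11 was listed at 0 in all libraries, Tmed6 was at 0.508 FPKM or less and Sec31b at 0.0794 FPKM or less.

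Each RNA-seq group held 2 libraries of polyadenylated RNA. The MetR group received transforming growth factor β1 (TGF-β1) under methionine restriction, and the siHoxc8 group received TGF-β1 together with short interfering RNA against the transcription factor Hoxc8. The TGF-β group received TGF-β1 alone, and the control group none. TGF-β1 was given for 48 h at 5 ng per uL, the unit printed in the labels, after 24 h in 0.2% serum. The labels' protocols give 30 uM methionine for the restriction medium and 200 uM for its control medium, but do not say that the TGF-β libraries received that control medium, and they name no control siRNA for the TGF-β libraries, so medium and transfection cannot be told apart from the treatment. The 20 chromatin samples of the series are not analysed here.

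Proteins with a signal peptide are brought to the ER membrane by the signal recognition particle, threaded through the Sec61 channel and trimmed by signal peptidase. Folded cargo leaves in vesicles shaped by the COPII coat, in which Sec23 and Sec24 form the inner layer, Sec24 binding cargo, and Sec13 and Sec31 the outer layer. COPI vesicles run back from the Golgi and carry KDEL receptors, which return escaped ER chaperones. Fibroblasts rely on this route to secrete collagen and other matrix proteins, and cargo as large as procollagen needs extra exit factors such as Mia2.

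The reads recovered from the values numbered 15118113 to 20146870 per library. Hoxc8, the targeted gene, was at 0.417 and 0.614 FPKM in MetR libraries, 0.463 and 0.0771 FPKM in siHoxc8 libraries, 4.32 and 5.01 FPKM in TGF-β libraries and 1.12 and 1.34 FPKM in control libraries. It was lowered in siHoxc8 against TGF-β libraries (log2 fold change -2.17 ± 0.19 SE, adjusted p = 0.000182). Of 9 fibroblast markers in the table, 8 reached 1 FPKM and Thy1 was listed at 0. Their summed level was 5920 to 8708 FPKM with MetR, 9986 to 10479 FPKM with siHoxc8, 11749 to 12724 FPKM with TGF-β and 6975 to 7041 FPKM in control. Col1a1 and Vim made up most of each sum, and the markers did not move together. Mean levels of Col1a1, Col3a1 and Vim were higher with TGF-β than in control, while those of Pdgfra, Pdgfrb, S100a4, Lum and Dcn were lower. Against TGF-β, siHoxc8 means were higher for Col3a1, Pdgfra, S100a4 and Lum and lower for Col1a1, Vim, Pdgfrb and Dcn. MetR means were higher for Pdgfrb, Lum and Dcn and lower for Col1a1, Col3a1, Vim, Pdgfra and S100a4. The MetR libraries lay far apart for Col3a1 (506 and 105 FPKM) and Lum (36.5 and 6.53 FPKM). Of 10 kidney epithelium markers, 3 reached 1 FPKM, while Epcam, Umod and Aqp2 were listed at 0. Almost all of their summed level was Krt8, a keratin. The sum was 647 to 687 FPKM in siHoxc8 libraries, 195 to 227 FPKM in TGF-β libraries and 234 to 256 FPKM in MetR libraries, against 236 to 239 FPKM in control libraries. Cdh16 was at 2.53 and 2.76 FPKM in MetR libraries and at 0.106 FPKM or less in all others. Slc34a1 was at 1.20 and 1.20 FPKM with siHoxc8, 0.976 and 1.13 FPKM with TGF-β and 0.373 FPKM or less in MetR and control libraries. Krt18 was at 0.0411 FPKM or less in every library. In bulk RNA, fewer cells of a type and less RNA per cell cannot be told apart. Separate cultures are not stated for the libraries of any group, and the p-values therefore measure only the spread between these libraries.

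Most of these genes were strongly expressed. The mean over the 8 libraries was 100 FPKM or more for 13 members, 10 to 100 FPKM for 32, 1 to 10 FPKM for 5 and under 1 FPKM for 4, and the median of the tested members was 42.1 FPKM. FPKM divides by gene length. Levels can be set beside each other between genes only as far as reads were assigned alike, which the sources used here do not state. Tmed9, a p24 protein, had the highest mean, 300.9 FPKM, with 295 and 281 FPKM in MetR, 321 and 328 FPKM in siHoxc8, 286 and 359 FPKM in TGF-β and 264 and 273 FPKM in control libraries. Its TGF-β libraries lay further apart than those of the other groups, and it was not called in any of the 3 main comparisons. Srp14, a subunit of the signal recognition particle, rested on 8 and 11 reads in MetR, 14 and 17 reads in siHoxc8, 5 and 4 reads in TGF-β and 14 and 7 reads in control libraries, so its level is uncertain.

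**Figure D1:**
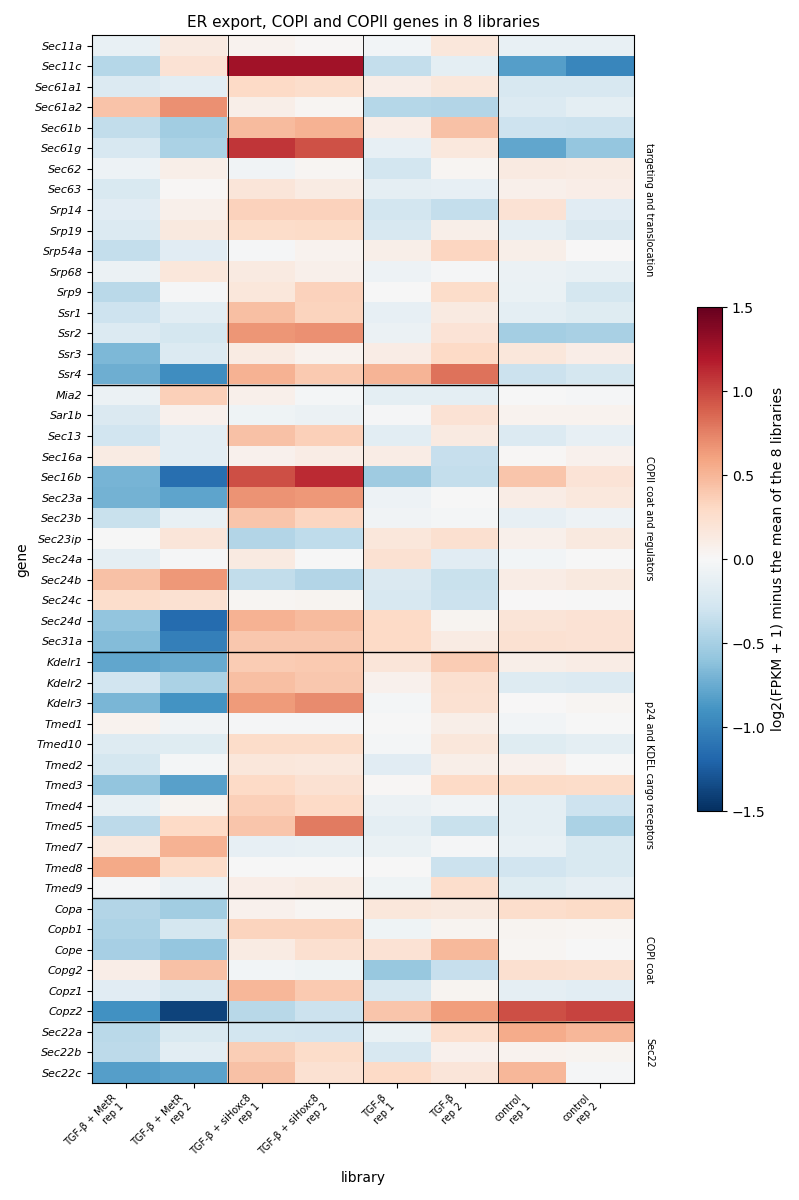
Level of each of the 51 tested genes (rows, grouped by role) in each of the 8 libraries (columns), as log2(FPKM + 1) minus the gene's mean over the libraries. Sec31a, Sec24d, Kdelr1 and Kdelr3 are low in both MetR libraries, Sec11c and Sec61g are high in both siHoxc8 libraries, and Copz2 is high in both control libraries.

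The start regions of these genes were searched for short motifs that factors of the unfolded protein response are known to bind. RefSeq promoters of assembly GRCr8, 250 bases before to 50 bases after the gene start, were matched by symbol for 48 of the 54 members. The motif TGACGTGG, known as the unfolded protein response element and bound by XBP1 and ATF6, was found on either strand in 5 of 48 member promoters (10.4%), against 175 of all 27457 promoters (0.637%). The cyclic AMP response element TGACGTCA was in 1 member promoter, that of Cope (2.08%, against 1.91% of all promoters), and 3 further motifs were in none: the ER stress response element (CCAAT and CCACG with 9 bases between), its second form (ATTGG and CCACG with 1 base between) and the amino acid response element TGATGNAA. In all promoters these 3 were found in 0.0765%, 0.0546% and 3.82%. The search used letters alone, its motifs were chosen with expression results known, and a match is no evidence that a factor binds. The promoters that hold TGACGTGG were chosen for display because 4 of these 5 genes were lowered in MetR against TGF-β libraries. There, 35.3% of the members and 19.0% of all genes were lowered. As the choice was made on this result, the count is no support for the motif. The motif or its reverse complement is in capitals, on the strand of the gene.
Copa (chr13:87078618-87078917, plus strand): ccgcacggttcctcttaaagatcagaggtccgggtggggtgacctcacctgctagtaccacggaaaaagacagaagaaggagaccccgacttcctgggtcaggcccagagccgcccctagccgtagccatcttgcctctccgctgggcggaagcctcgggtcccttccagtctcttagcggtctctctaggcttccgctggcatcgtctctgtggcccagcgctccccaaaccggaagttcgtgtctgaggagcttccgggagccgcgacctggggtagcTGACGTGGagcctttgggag
Copb1 (chr1:177872791-177873090, minus strand): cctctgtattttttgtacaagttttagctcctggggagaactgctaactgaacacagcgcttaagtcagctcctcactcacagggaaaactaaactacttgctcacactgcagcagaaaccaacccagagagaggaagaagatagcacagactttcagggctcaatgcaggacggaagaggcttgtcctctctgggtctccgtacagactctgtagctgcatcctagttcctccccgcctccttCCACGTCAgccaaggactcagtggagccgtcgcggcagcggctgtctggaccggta
Kdelr3 (chr7:112959382-112959681, plus strand): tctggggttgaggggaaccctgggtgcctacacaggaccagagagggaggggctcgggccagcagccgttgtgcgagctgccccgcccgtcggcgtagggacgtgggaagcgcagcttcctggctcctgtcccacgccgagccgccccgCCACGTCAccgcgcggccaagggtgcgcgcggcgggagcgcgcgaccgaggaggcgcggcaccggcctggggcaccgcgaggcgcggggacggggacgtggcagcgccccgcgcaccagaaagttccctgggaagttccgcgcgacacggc
Sec23a (chr6:82440855-82441154, minus strand): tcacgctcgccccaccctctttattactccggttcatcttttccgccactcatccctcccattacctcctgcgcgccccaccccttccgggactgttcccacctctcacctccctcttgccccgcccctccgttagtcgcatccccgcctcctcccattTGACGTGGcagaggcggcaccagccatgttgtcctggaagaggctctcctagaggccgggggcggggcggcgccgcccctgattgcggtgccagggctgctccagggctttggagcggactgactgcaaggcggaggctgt
Srp19 (chr18:26205638-26205937, plus strand): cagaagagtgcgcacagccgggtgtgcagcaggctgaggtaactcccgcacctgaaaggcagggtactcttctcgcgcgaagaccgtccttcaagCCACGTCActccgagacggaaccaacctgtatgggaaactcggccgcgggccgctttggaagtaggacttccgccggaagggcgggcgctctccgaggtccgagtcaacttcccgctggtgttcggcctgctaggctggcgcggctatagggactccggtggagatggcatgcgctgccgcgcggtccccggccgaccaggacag
The motif began 91 bases before the start in Sec23a, 101 before in Kdelr3, 155 before in Srp19 and 6 before in Copb1, and at base 31 after the start in Copa.

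TGF-β alone moved few of these genes. A gene is called raised or lowered where limma's test on log2(FPKM + 1) gave an adjusted p under 0.05. With TGF-β, 7 of 51 members were raised (13.7%) and 5 lowered (9.80%) relative to control, where the background over all tested genes was 10.3% raised and 28.6% lowered. Translocation genes made up 6 of the 7 raised, which was 6 of the 17 tested in that role (35.3%). The 5 lowered were Copg2, Sec24b, Sec24c, Sec16b and Sec22a. The median log2 fold change was 0.06 over the members and -0.19 over all genes. Only the calls of Ssr4 and Copg2 were made under all 16 alternatives, and without control replicate 1 the counts were 1 raised and 1 lowered, and without control replicate 2 they were 3 and 2. Lowered members also numbered 3 without TGF-β replicate 1 and 3 without either siHoxc8 library, and 8 without either MetR library. Rescaling each library to its median ratio raised the median of all genes by 0.20 and gave 20 of 51 members raised and 2 lowered. All genes were then 19.1% raised and 17.0% lowered. Quantile normalization gave 8 raised and 1 lowered, where all genes were 16.9% raised and 17.1% lowered.

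Under methionine restriction several coat subunits, all 3 KDEL receptors and some translocation subunits were lowered. In MetR against TGF-β libraries, 18 of 51 members were lowered (35.3%) and 6 raised (11.8%), where the background was 19.0% lowered and 34.8% raised. By role, 5 of 17 translocation genes, 3 of 13 COPII genes, 4 of 12 p24 proteins and KDEL receptors, 4 of 6 COPI subunits and 2 of 3 Sec22 genes were lowered. The 6 raised were Sec61a2, Sec24b, Copg2, Tmed8, Sec24c and Tmed7. The median log2 fold change was -0.19 over the members, -0.49 over the COPI subunits and 0.18 over all genes. Of the 24 calls, 17 were made under all 16 alternatives, and leaving out any 1 library gave 14 to 24 lowered and 4 to 8 raised. Median ratio rescaling, which shifted the median of all genes by -0.18, gave 33 of 51 lowered and 4 raised. All genes were then 26.6% lowered and 25.5% raised. The members' median was -0.34 without TGF-β replicate 1 and -0.12 without TGF-β replicate 2.

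In siHoxc8 against TGF-β libraries more members were raised than lowered, which was also so over all tested genes. Relative to TGF-β libraries, 18 of 51 members were raised (35.3%) and 2 lowered (3.92%), where the background was 28.1% raised and 15.7% lowered. The raised genes were 6 translocation genes, 5 COPII genes, 3 p24 proteins or KDEL receptors, 3 COPI subunits and Sec22b, and the lowered ones were Copz2 and Sec23ip. The median log2 fold change was 0.20 over the members and 0.13 over all genes. Of the 20 calls, 7 were made under every alternative in which the gene was tested, and 13 were lost under at least 1. Median ratio rescaling shifted the median of all genes by -0.14 and gave 10 of 51 members raised and 8 lowered. All tested genes were then 20.9% raised and 22.3% lowered, so the share of members raised was near that of all genes. Quantile normalization gave 15 of 51 raised and 4 lowered, where all genes were 22.1% raised and 21.7% lowered. The count of raised members was 9 without TGF-β replicate 1, 7 without siHoxc8 replicate 1 and 6 without siHoxc8 replicate 2. Krt8 was higher in both siHoxc8 libraries, 685 and 646 FPKM, than in TGF-β libraries, 194 and 225 FPKM, and its part in these results, like that of the fibroblast marker levels, was not tested.

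**Figure D2:**
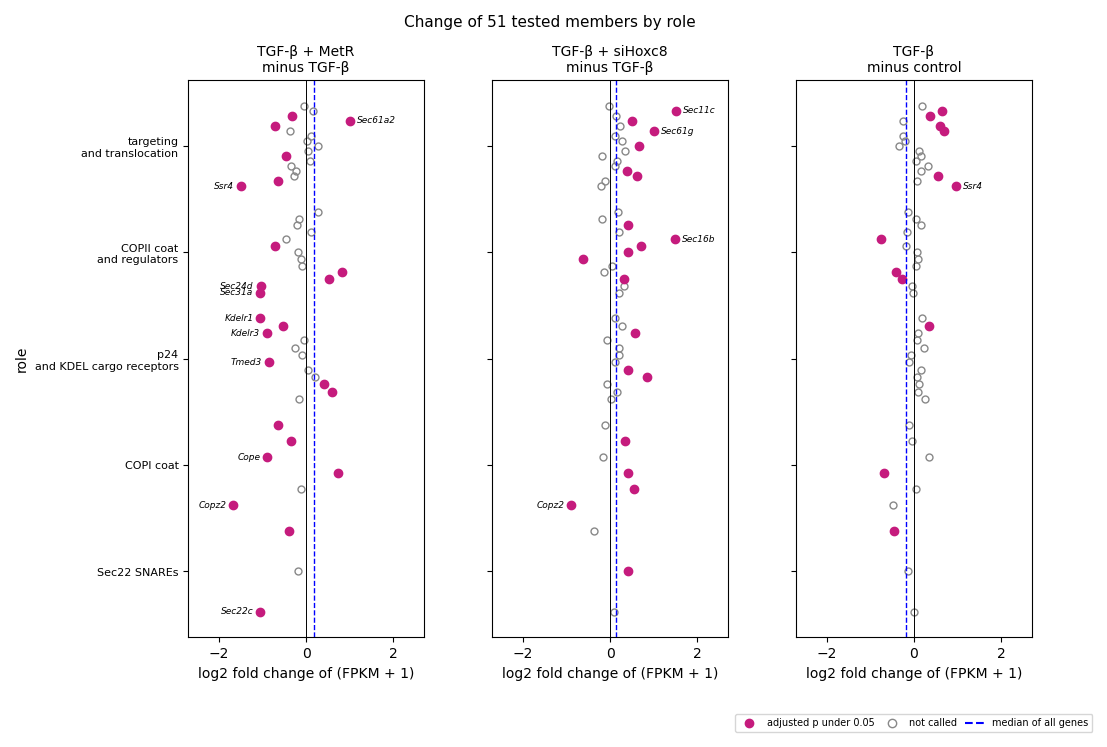
Log2 fold change of (FPKM + 1) of the 51 tested genes, by role, for MetR against TGF-β, siHoxc8 against TGF-β and TGF-β against control. Filled points had an adjusted p under 0.05, and the dashed line is the median over all 12315 genes: 0.18, 0.13 and -0.19. COPI subunits and KDEL receptors lie mostly left of 0 with MetR, where Copz2 is lowest at -1.67.

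The Sec61 channel has a pore-forming subunit, Sec61a1, its paralogue Sec61a2, and the small subunits Sec61b and Sec61g. Sec61g was at 193 and 164 FPKM with MetR, 481 and 445 FPKM with siHoxc8, 210.2 and 255 FPKM with TGF-β and 133 and 153 FPKM in control libraries. The siHoxc8 libraries stood above all others, and the TGF-β libraries above control. It was raised by TGF-β relative to control (log2 fold change 0.70 ± 0.14 SE, adjusted p = 0.00676) and again in siHoxc8 against TGF-β libraries (log2 fold change 1.00 ± 0.14 SE, adjusted p = 0.00116), while its MetR difference from TGF-β did not pass (log2 fold change -0.38 ± 0.14 SE, adjusted p = 0.0502). Sec61b was at 98.2 and 88.2 FPKM with MetR, 178 and 183 FPKM with siHoxc8, 137 and 173 FPKM with TGF-β and 102 and 102 FPKM in control. Both MetR values lay below both TGF-β values. Sec61b was raised by TGF-β (log2 fold change 0.59 ± 0.12 SE, adjusted p = 0.00884) and lowered in MetR against TGF-β libraries (log2 fold change -0.72 ± 0.12 SE, adjusted p = 0.00229). Sec61a1 was at 185 and 192 FPKM with MetR, 263 and 257 FPKM with siHoxc8, 229 and 241 FPKM with TGF-β and 180.1 and 181 FPKM in control. It was raised by TGF-β (log2 fold change 0.38 ± 0.09 SE, adjusted p = 0.0119) and lowered in MetR against TGF-β libraries (log2 fold change -0.32 ± 0.09 SE, adjusted p = 0.0158). Sec61a2 differed from these under methionine restriction, at 20.5 and 24.7 FPKM with MetR, 15.9 and 15.2 FPKM with siHoxc8, 10.9 and 10.7 FPKM with TGF-β and 12.8 and 13.4 FPKM in control. Its 4 groups did not overlap, and it was raised relative to TGF-β libraries both with MetR (log2 fold change 1.00 ± 0.11 SE, adjusted p = 0.000438) and with siHoxc8 (log2 fold change 0.49 ± 0.11 SE, adjusted p = 0.0111). Sec61a2 thus made up 10.0% and 11.4% of the summed FPKM of Sec61a1 and Sec61a2 in MetR libraries and 5.71% and 5.59% in siHoxc8 libraries, against 4.53% and 4.26% in TGF-β libraries. The TGF-β calls ended without control replicate 1 for Sec61g (adjusted p = 0.0656) and without either control library for Sec61b (adjusted p = 0.0610 to 0.0615). The TGF-β call of Sec61a1 ended without either control library and under quantile normalization (adjusted p = 0.0857 to 0.0963). The Sec61a1 call with MetR ended when only MetR and TGF-β libraries were fitted and under quantile normalization (adjusted p = 0.107 to 0.155), and the Sec61a2 call with siHoxc8 without either siHoxc8 library (adjusted p = 0.0556 to 0.0807).

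The translocon-associated complex of Ssr1 to Ssr4 sits beside Sec61 and helps some signal sequences to insert. Ssr4 was at 106 and 92.2 FPKM with MetR, 255 and 232 FPKM with siHoxc8, 253 and 312 FPKM with TGF-β and 142 and 147 FPKM in control libraries. The MetR libraries were below all others and the TGF-β libraries well above control. It had the largest rise of the members with TGF-β against control (log2 fold change 0.95 ± 0.13 SE, adjusted p = 0.00136). In MetR against TGF-β libraries it was lowered (log2 fold change -1.49 ± 0.13 SE, adjusted p = 0.000169), to a level under that of control as well (log2 fold change -0.54 ± 0.13 SE, adjusted p = 0.00884). Ssr2 was at 107 and 103 FPKM with MetR, 194 and 198 FPKM with siHoxc8, 116 and 142 FPKM with TGF-β and 86.1 and 87.7 FPKM in control. It was raised by TGF-β (log2 fold change 0.55 ± 0.11 SE, adjusted p = 0.00687) and raised further in siHoxc8 against TGF-β libraries (log2 fold change 0.61 ± 0.11 SE, adjusted p = 0.00366). Ssr3 was at 36.1 and 50.4 FPKM with MetR, 63.6 and 60.5 FPKM with siHoxc8, 62.6 and 71.7 FPKM with TGF-β and 65.7 and 62.6 FPKM in control, and was lowered in MetR against TGF-β libraries (log2 fold change -0.64 ± 0.16 SE, adjusted p = 0.0107). Ssr1 was at 96.3 and 107 FPKM with MetR, 164 and 150.0 FPKM with siHoxc8, 109 and 131 FPKM with TGF-β and 107 and 105 FPKM in control, and was raised in siHoxc8 against TGF-β libraries (log2 fold change 0.39 ± 0.12 SE, adjusted p = 0.0299). The 4 subunits did not share 1 pattern: each of the 3 main comparisons called 2 of them, and each called a different pair. The TGF-β call of Ssr2 ended without control replicate 1 (adjusted p = 0.0588), the MetR call of Ssr3 without TGF-β replicate 2 or with only these 2 groups fitted (adjusted p = 0.0501 to 0.0699), and the MetR against control call of Ssr4 without control replicate 2 (adjusted p = 0.0608). The siHoxc8 call of Ssr1 ended under median ratio rescaling and without TGF-β replicate 1, either control library or either siHoxc8 library (adjusted p = 0.0641 to 0.180).

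Signal peptidase has the alternative catalytic subunits Sec11a and Sec11c. Sec11c was at 25.9 and 40.8 FPKM with MetR, 85.8 and 85.8 FPKM with siHoxc8, 27.1 and 31.6 FPKM with TGF-β and 19.3 and 17.3 FPKM in control libraries. Both siHoxc8 values were more than any other, the MetR values spanned the TGF-β values, and both control values were lowest. In siHoxc8 against TGF-β libraries its rise was the largest among the members on the log2(FPKM + 1) scale (log2 fold change 1.52 ± 0.20 SE, adjusted p = 0.000867). By mean FPKM, Sec16b (1.71 FPKM with TGF-β, 6.59 FPKM with siHoxc8) and Srp14, on few reads, rose by larger factors. Against control the rise of Sec11c with siHoxc8 was larger still (log2 fold change 2.17 ± 0.20 SE, adjusted p = 0.000153). The rise with TGF-β against control was smaller (log2 fold change 0.65 ± 0.20 SE, adjusted p = 0.0340) and ended without either TGF-β, either control or either siHoxc8 library, or with no filter on low values (adjusted p = 0.0590 to 0.166). Sec11a, at 89.8 and 107 FPKM with MetR, 100.5 and 97.8 FPKM with siHoxc8, 94.4 and 109 FPKM with TGF-β and 89.5 and 89.4 FPKM in control, passed in none of the 3 main comparisons. Sec11c made up 46.0% and 46.7% of the summed FPKM of the pair in siHoxc8 libraries and 22.4% and 27.6% in MetR libraries, against 22.3% and 22.4% in TGF-β libraries and 17.7% and 16.2% in control libraries. With 2 libraries against 2, an exact permutation test of such a share cannot give a p under 0.333, so these shares are descriptions.

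Of the signal recognition particle, Srp54a, which encodes the subunit that reads signal sequences, was at 22.96 and 26.3 FPKM with MetR, 29.3 and 30.8 FPKM with siHoxc8, 31.8 and 37.3 FPKM with TGF-β and 31.6 and 29.7 FPKM in control. It was lowered in MetR against TGF-β libraries (log2 fold change -0.47 ± 0.12 SE, adjusted p = 0.0112), a call that ended without TGF-β replicate 2 or with only these 2 groups fitted (adjusted p = 0.0607 to 0.0708). Srp9, Srp19 and Srp68 passed in none of the 3 main comparisons. Srp14 passed in siHoxc8 against TGF-β libraries (log2 fold change 0.67 ± 0.19 SE, adjusted p = 0.0241) on the few reads given above, and not without any 1 library of those groups (adjusted p = 0.0716 to 0.0962). Sec62 and Sec63, which help proteins across after their synthesis, were called in none of the 3 either, with 48.3 and 54.1 FPKM of Sec62 in MetR, 49.1 and 52.01 FPKM in siHoxc8, 42.1 and 52.3 FPKM in TGF-β and 56.2 and 55.4 FPKM in control libraries.

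In the inner COPII coat, Sec23a, whose human counterpart is mutated in a craniofacial disorder, moved in opposite directions with MetR and siHoxc8. It was at 10.6 and 9.94 FPKM with MetR, 29.2 and 28.8 FPKM with siHoxc8, 16.99 and 17.8 FPKM with TGF-β and 19.6 and 20.1 FPKM in control libraries. The 4 groups did not overlap. Relative to TGF-β libraries, which both comparisons share, it was lowered with MetR (log2 fold change -0.71 ± 0.09 SE, adjusted p = 0.000734) and raised with siHoxc8 (log2 fold change 0.71 ± 0.09 SE, adjusted p = 0.000924), and neither call was lost under an alternative. The same directions held against control, with -0.89 ± 0.09 SE for MetR on the log2 scale (adjusted p = 0.000189) and 0.53 ± 0.09 SE for siHoxc8 (adjusted p = 0.00286). Its paralogue Sec23b was at 17.5 and 20.6 FPKM with MetR, 30.2 and 28.2 FPKM with siHoxc8, 21.6 and 21.9 FPKM with TGF-β and 20.5 and 21.2 FPKM in control. It was raised in siHoxc8 against TGF-β libraries (log2 fold change 0.41 ± 0.11 SE, adjusted p = 0.0174), but not without any 1 library of these groups or under median ratio rescaling (adjusted p = 0.0543 to 0.125), and its MetR difference did not pass (log2 fold change -0.18 ± 0.11 SE, adjusted p = 0.178). Sec23a made up 37.7% and 32.5% of the summed FPKM of the pair in MetR libraries and 49.2% and 50.5% in siHoxc8 libraries, against 44.1% and 44.9% in TGF-β libraries and 48.8% and 48.7% in control libraries.

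The 4 Sec24 paralogues, which differ in the cargo signals they bind, divided under methionine restriction. Sec24d was at 43.7 and 29.4 FPKM with MetR, 96.1 and 93.3 FPKM with siHoxc8, 82.01 and 68.8 FPKM with TGF-β and 76.3 and 77.7 FPKM in control, and in MetR against TGF-β libraries it was lowered (log2 fold change -1.05 ± 0.18 SE, adjusted p = 0.00217). Both MetR values were under all others, and the MetR replicates themselves lay apart. Sec24b was at 27.5 and 31.8 FPKM with MetR, 15.3 and 14.5 FPKM with siHoxc8, 17.04 and 15.7 FPKM with TGF-β and 21.7 and 22.3 FPKM in control, and in MetR against TGF-β libraries it was raised (log2 fold change 0.82 ± 0.11 SE, adjusted p = 0.000746). Sec24c was at 44.7 and 43.4 FPKM with MetR, 37.9 and 38.1 FPKM with siHoxc8, 31.3 and 29.3 FPKM with TGF-β and 37.1 and 36.8 FPKM in control, and was raised with MetR as well (log2 fold change 0.53 ± 0.09 SE, adjusted p = 0.00179). These 3 MetR calls were made under all alternatives. Sec24a, the least abundant, was at 6.78 and 7.43 FPKM with MetR, 8.34 and 7.51 FPKM with siHoxc8, 9.003 and 6.55 FPKM with TGF-β and 7.26 and 7.44 FPKM in control and was not called.

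As a share of the summed Sec24 FPKM, Sec24d held 35.7% and 26.2% in MetR libraries and 60.97% and 60.8% in siHoxc8 libraries, against 58.9% and 57.2% in TGF-β libraries and 53.6% and 53.9% in control libraries. Sec24b held 22.4% and 28.4% in MetR libraries and 9.70% and 9.44% in siHoxc8 libraries, against 12.2% and 13.05% in TGF-β libraries. Sec24c held 36.4% and 38.7% in MetR libraries and 24.0% and 24.8% in siHoxc8 libraries, against 22.4% and 24.3% in TGF-β libraries. In both MetR libraries Sec24c held the largest share, whereas Sec24d did in all other libraries. The summed Sec24 level was 123 and 112 FPKM there, against 139 and 120.4 FPKM in TGF-β libraries. With TGF-β against control, Sec24b (log2 fold change -0.40 ± 0.11 SE, adjusted p = 0.0215) and Sec24c (log2 fold change -0.28 ± 0.09 SE, adjusted p = 0.0356) were lowered. The Sec24b call ended without either control library, without TGF-β replicate 2 and under both rescalings (adjusted p = 0.0901 to 0.188), and the Sec24c call under these, with the replicate block and without either siHoxc8 library (adjusted p = 0.0519 to 0.658). Sec24c was also raised in siHoxc8 against TGF-β libraries (log2 fold change 0.32 ± 0.09 SE, adjusted p = 0.0191), but not under either rescaling, nor without either control or siHoxc8 library or TGF-β replicate 2 (adjusted p = 0.0530 to 0.183).

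**Figure D3:**
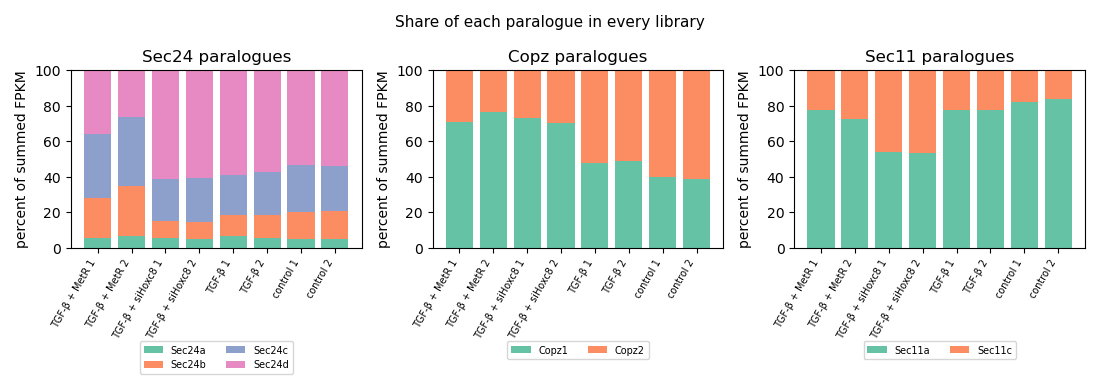
Share of each paralogue in the summed FPKM of Sec24a to Sec24d, of Copz1 and Copz2, and of Sec11a and Sec11c, as stacked bars that add to 100 percent in each of the 8 libraries. Sec24d takes 26.2% to 35.7% of the Sec24 sum in MetR libraries and 57.2% to 58.9% in TGF-β libraries, and Copz2 takes 23.3% to 29.0% of its pair in MetR libraries and 51.04% to 52.3% in TGF-β libraries.

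In the outer COPII coat, Sec31a was at 45.3 and 34.5 FPKM with MetR, 95.1 and 94.8 FPKM with siHoxc8, 87.9 and 78.01 FPKM with TGF-β and 84.1 and 83.6 FPKM in control libraries. Both MetR values were far under the rest, and Sec31a was lowered in MetR against TGF-β libraries (log2 fold change -1.05 ± 0.13 SE, adjusted p = 0.000671), while TGF-β against control gave a log2 fold change of -0.02 ± 0.13 SE, adjusted p = 0.926. Sec13, its partner in the cage, was at 109 and 120.1 FPKM with MetR, 182 and 172 FPKM with siHoxc8, 120.3 and 147 FPKM with TGF-β and 116 and 123 FPKM in control. It was raised in siHoxc8 against TGF-β libraries (log2 fold change 0.41 ± 0.12 SE, adjusted p = 0.0256), a call that ended under median ratio rescaling and without TGF-β replicate 1, either control or either siHoxc8 library (adjusted p = 0.0546 to 0.144). With MetR its log2 fold change from TGF-β was -0.21 ± 0.12 SE, adjusted p = 0.164. The 2 cage partners thus passed in different comparisons, and the difference between their changes was not tested.

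Among regulators at ER exit sites, Sec16b, a paralogue of the scaffold Sec16a, was at 1.26 and 0.683 FPKM with MetR, 6.203 and 6.97 FPKM with siHoxc8, 1.54 and 1.88 FPKM with TGF-β and 3.903 and 3.23 FPKM in control. Both siHoxc8 values were above all others and all TGF-β values under both control values. It was raised in siHoxc8 against TGF-β libraries (log2 fold change 1.49 ± 0.18 SE, adjusted p = 0.000696) and lowered by TGF-β against control (log2 fold change -0.75 ± 0.18 SE, adjusted p = 0.0152), and the second call ended without control replicate 1, TGF-β replicate 1 or under quantile normalization (adjusted p = 0.0763 to 0.104). Sec23ip, which binds Sec23, was at 22.9 and 26.4 FPKM with MetR, 16.8 and 17.6 FPKM with siHoxc8, 26.2 and 27.5 FPKM with TGF-β and 24.5 and 25.7 FPKM in control. It was lower in both siHoxc8 libraries than in any other, and lowered against TGF-β (log2 fold change -0.61 ± 0.10 SE, adjusted p = 0.00269). Sec16a, the GTPase Sar1b that starts coat assembly, and the exit factor Mia2 were called in none of the 3 main comparisons. Mia2 was at 19.2 and 26.5 FPKM with MetR, 21.6 and 20.1 FPKM with siHoxc8, 18.4 and 18.4 FPKM with TGF-β and 20.5 and 20.4 FPKM in control, and Sar1b was at 29.5 and 36.3 FPKM with MetR, 32.98 and 32.5 FPKM with siHoxc8, 34.05 and 40.4 FPKM with TGF-β and 36.03 and 35.8 FPKM in control.

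All 3 KDEL receptors were lowered under methionine restriction. Kdelr1 was at 77.1 and 77.8 FPKM with MetR, 173 and 174 FPKM with siHoxc8, 151 and 173 FPKM with TGF-β and 141 and 143 FPKM in control libraries, and both MetR values were lowest. Relative to TGF-β libraries, the log2 fold change of Kdelr1 with MetR was -1.05 ± 0.09 SE, adjusted p = 0.000193. Kdelr2 was at 92.4 and 81.3 FPKM with MetR, 155 and 149.6 FPKM with siHoxc8, 118 and 133 FPKM with TGF-β and 98.8 and 98.2 FPKM in control. Its log2 fold change with MetR was -0.53 ± 0.10 SE, adjusted p = 0.00420. Kdelr3 was at 79.7 and 69.1 FPKM with MetR, 202 and 212 FPKM with siHoxc8, 127 and 151 FPKM with TGF-β and 130.0 and 132 FPKM in control. Its MetR values were below all others and its siHoxc8 values above all others. With MetR its log2 fold change from TGF-β was -0.89 ± 0.12 SE, adjusted p = 0.000734, and with siHoxc8 it was 0.57 ± 0.12 SE, adjusted p = 0.00634, a call that ended without siHoxc8 replicate 2 (adjusted p = 0.0517). The 3 MetR calls were made under all alternatives. Kdelr2 was raised by TGF-β against control (log2 fold change 0.35 ± 0.10 SE, adjusted p = 0.0336), but not without either control or siHoxc8 library, without TGF-β replicate 2 or under quantile normalization (adjusted p = 0.0621 to 0.156).

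**Figure D4:**
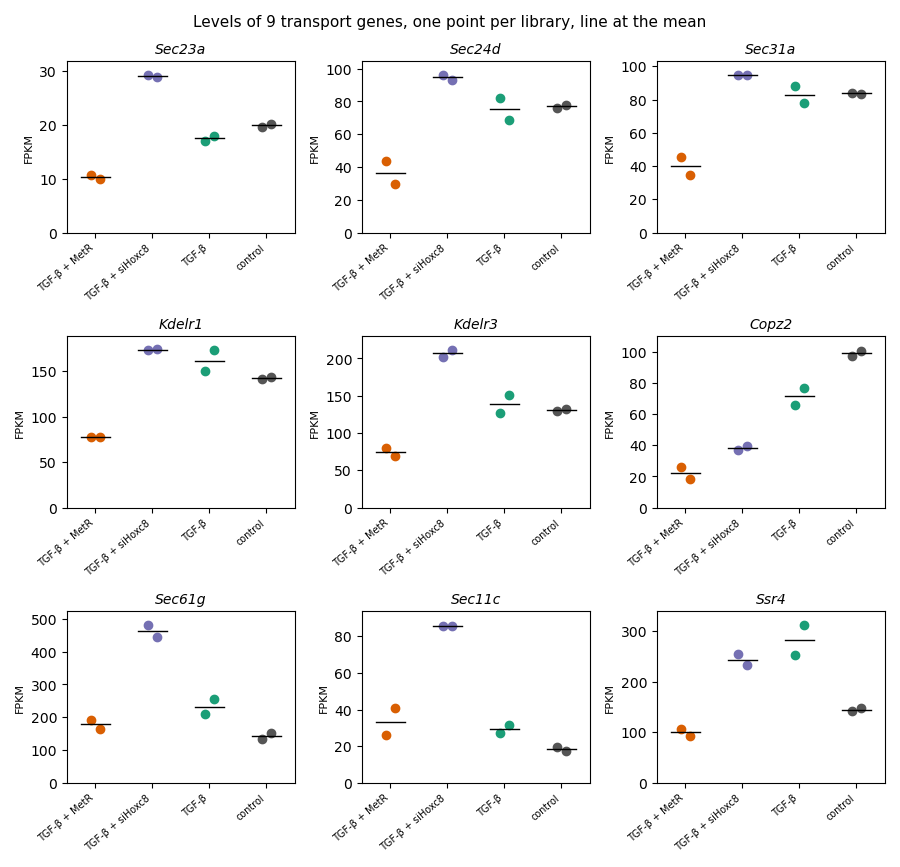
FPKM of 9 transport genes in MetR, siHoxc8, TGF-β and control libraries. Each point is 1 library, each line the mean of the 2, and every axis starts at 0. Kdelr1 sits at 77.1 and 77.8 FPKM in MetR libraries, under all other libraries, and Sec11c at 85.8 FPKM in both siHoxc8 libraries, above all others.

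The p24 proteins are type I membrane proteins that cycle between ER and Golgi and bind cargo and coats. Tmed3 was at 58.2 and 49.4 FPKM with MetR, 108 and 103 FPKM with siHoxc8, 88.8 and 109 FPKM with TGF-β and 107 and 106 FPKM in control, and was lowered in MetR against TGF-β libraries (log2 fold change -0.86 ± 0.13 SE, adjusted p = 0.00115). It was the only p24 gene lowered there at the threshold, and the call was made under all alternatives. Tmed7 was at 71.7 and 92.4 FPKM with MetR, 58.5 and 59.3 FPKM with siHoxc8, 59.8 and 63.3 FPKM with TGF-β and 59.1 and 54.6 FPKM in control, and was raised with MetR (log2 fold change 0.40 ± 0.13 SE, adjusted p = 0.0317). Tmed8 was at 10.3 and 8.22 FPKM with MetR, 6.600 and 6.56 FPKM with siHoxc8, 6.600 and 5.097 FPKM with TGF-β and 5.23 and 5.51 FPKM in control, and was raised with MetR as well (log2 fold change 0.58 ± 0.15 SE, adjusted p = 0.0141). The Tmed7 call ended under 10 of the 16 alternatives, among them leaving out any library but MetR replicate 1 (adjusted p = 0.0536 to 0.209), and the Tmed8 call without TGF-β replicate 2, under both rescalings and with only these 2 groups fitted (adjusted p = 0.0694 to 0.0848). With siHoxc8 against TGF-β, Tmed5 (log2 fold change 0.84 ± 0.24 SE, adjusted p = 0.0249) and Tmed4 (log2 fold change 0.40 ± 0.10 SE, adjusted p = 0.0160) were raised. Tmed5 was at 16.1 and 26.6 FPKM with MetR, 28.9 and 37.6 FPKM with siHoxc8, 19.2 and 16.9 FPKM with TGF-β and 19.2 and 15.2 FPKM in control, where the MetR libraries lay far apart. The Tmed5 call ended without either TGF-β library, without siHoxc8 replicate 2 and with no filter (adjusted p = 0.0647 to 0.142), and the Tmed4 call without TGF-β replicate 1 or either siHoxc8 library and under median ratio rescaling (adjusted p = 0.0617 to 0.111). The abundant Tmed2, Tmed9 and Tmed10, and Tmed1, were called in none of the 3 main comparisons.

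The COPI coat is built of several kinds of subunit, of which α, β, ε, γ and ζ fall under the symbols used here. Copz2, the second ζ subunit, was at 25.9 and 18.3 FPKM with MetR, 36.7 and 39.4 FPKM with siHoxc8, 66.04 and 76.7 FPKM with TGF-β and 97.5 and 101 FPKM in control libraries. The 4 groups did not overlap, control being highest and MetR lowest. Relative to TGF-β libraries Copz2 was lowered with MetR (log2 fold change -1.67 ± 0.16 SE, adjusted p = 0.000228) and with siHoxc8 (log2 fold change -0.89 ± 0.16 SE, adjusted p = 0.00370), while its difference between TGF-β and control did not pass (log2 fold change -0.47 ± 0.16 SE, adjusted p = 0.0511). Against control the log2 fold change was -2.14 ± 0.16 SE, adjusted p = 4.99e-05 with MetR and -1.36 ± 0.16 SE, adjusted p = 0.000487 with siHoxc8, the largest fall among the members in each. Its paralogue Copz1 was at 63.2 and 60.2 FPKM with MetR, 101 and 93.8 FPKM with siHoxc8, 60.2 and 73.6 FPKM with TGF-β and 64.99 and 63.9 FPKM in control. Copz1 was raised in siHoxc8 against TGF-β libraries (log2 fold change 0.54 ± 0.11 SE, adjusted p = 0.00705), but not without siHoxc8 replicate 1 (adjusted p = 0.0630). Copz2 made up 29.0% and 23.3% of the summed FPKM of the pair in MetR libraries and 26.7% and 29.6% in siHoxc8 libraries, against 52.3% and 51.04% in TGF-β libraries and 60.01% and 61.1% in control libraries. The pair therefore leaned to Copz1 in both combined treatments and to Copz2 in control.

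Of the other COPI subunits, Copa (α) was at 68.8 and 64.7 FPKM with MetR, 97.9 and 95.7 FPKM with siHoxc8, 105 and 103 FPKM with TGF-β and 112 and 114 FPKM in control, and was lowered in MetR against TGF-β libraries (log2 fold change -0.64 ± 0.08 SE, adjusted p = 0.000735). Cope (ε) was at 26.7 and 25.1 FPKM with MetR, 41.4 and 45.1 FPKM with siHoxc8, 44.3 and 53.7 FPKM with TGF-β and 38.8 and 38.1 FPKM in control, and was lowered with MetR too (log2 fold change -0.89 ± 0.11 SE, adjusted p = 0.000698). Both MetR values of each gene were under all other values. Copb1 (β) was at 41.4 and 47.5 FPKM with MetR, 72.5 and 72.5 FPKM with siHoxc8, 54.4 and 59.00 FPKM with TGF-β and 58.8 and 58.4 FPKM in control. Relative to TGF-β libraries it was lowered with MetR (log2 fold change -0.35 ± 0.10 SE, adjusted p = 0.020) and raised with siHoxc8 (log2 fold change 0.35 ± 0.10 SE, adjusted p = 0.0238). The first call ended without TGF-β replicate 2 or with only these 2 groups fitted (adjusted p = 0.0837 to 0.130), and the second under median ratio rescaling and without TGF-β replicate 1, either control or either siHoxc8 library (adjusted p = 0.0573 to 0.124). Copg2 (γ) was the only one of the 6 tested COPI members raised with MetR. It was at 28.9 and 36.7 FPKM with MetR, 26.1 and 25.5 FPKM with siHoxc8, 17.8 and 20.9 FPKM with TGF-β and 31.98 and 31.5 FPKM in control. The TGF-β libraries were lowest. It was lowered by TGF-β against control (log2 fold change -0.69 ± 0.13 SE, adjusted p = 0.00623) and raised in MetR against TGF-β libraries (log2 fold change 0.73 ± 0.13 SE, adjusted p = 0.00312), and both calls were made under all alternatives. In siHoxc8 against TGF-β libraries it was raised (log2 fold change 0.40 ± 0.13 SE, adjusted p = 0.0431), but not under either rescaling, with no filter, or without TGF-β replicate 1, either control or either siHoxc8 library (adjusted p = 0.0723 to 0.195).

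Sec22b is a SNARE that drives fusion between ER and Golgi membranes, and Sec22a and Sec22c are its relatives. Sec22c was at 3.71 and 3.77 FPKM with MetR, 10.2 and 8.78 FPKM with siHoxc8, 9.23 and 8.45 FPKM with TGF-β and 10.7 and 7.19 FPKM in control libraries. The MetR values were lowest, and it was lowered in MetR against TGF-β libraries (log2 fold change -1.05 ± 0.18 SE, adjusted p = 0.00217). Sec22a was at 6.03 and 6.99 FPKM with MetR, 6.71 and 6.63 FPKM with siHoxc8, 7.73 and 10.1 FPKM with TGF-β and 12.7 and 12.2 FPKM in control, where both control values were highest. It was lowered by TGF-β against control (log2 fold change -0.45 ± 0.14 SE, adjusted p = 0.0399) and in MetR against TGF-β libraries (log2 fold change -0.39 ± 0.14 SE, adjusted p = 0.0488), but each call ended under 9 of the 16 alternatives (adjusted p = 0.0555 to 0.318 and adjusted p = 0.0554 to 0.228), among them leaving out either control or either siHoxc8 library for both, TGF-β replicate 1 for the first, and TGF-β replicate 2 or MetR replicate 1 for the second. Against control, Sec22a was lowered both with MetR (log2 fold change -0.84 ± 0.14 SE, adjusted p = 0.00174) and with siHoxc8 (log2 fold change -0.81 ± 0.14 SE, adjusted p = 0.00285), under all alternatives. Sec22b was at 27.8 and 32.9 FPKM with MetR, 47.8 and 44.7 FPKM with siHoxc8, 31.1 and 38.6 FPKM with TGF-β and 38.2 and 37.9 FPKM in control. It was raised in siHoxc8 against TGF-β libraries (log2 fold change 0.41 ± 0.13 SE, adjusted p = 0.0379), but not under 8 of the 16 alternatives, among them both rescalings and leaving out TGF-β replicate 1, either control or either siHoxc8 library (adjusted p = 0.0645 to 0.184).

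Set against control, the combined treatments had opposite balances of calls. In MetR libraries 6 of 51 members were raised (11.8%) and 15 lowered (29.4%), where the background was 28.0% raised and 29.3% lowered, so the share lowered was near that of all genes. In siHoxc8 libraries 20 were raised (39.2%) and 4 lowered (7.84%), where the background was 21.7% raised and 27.0% lowered. The median log2 fold change of the members was -0.07 with MetR and 0.25 with siHoxc8, and that of all genes -0.01 and -0.05. Without MetR replicate 1 the median of the members with MetR was -0.02, without MetR replicate 2 it was -0.13 and without control replicate 2 it was -0.10. Rescaling by the median ratio gave 6 raised and 16 lowered with MetR, where all genes were 29.0% raised and 28.8% lowered. It gave 23 raised and 4 lowered with siHoxc8, where all genes were 25.2% raised and 24.7% lowered. Members raised with MetR numbered 2 without control replicate 2 and 10 without MetR replicate 1, and those raised with siHoxc8 numbered 13 without control replicate 2 and 13 without siHoxc8 replicate 1. The falls of Sec24d (log2 fold change -1.08 ± 0.18 SE, adjusted p = 0.00153), Sec31a (log2 fold change -1.07 ± 0.13 SE, adjusted p = 0.000440), Kdelr1 (log2 fold change -0.87 ± 0.09 SE, adjusted p = 0.000235) and Kdelr3 (log2 fold change -0.81 ± 0.12 SE, adjusted p = 0.000821) with MetR put these genes under their control level and not only under that with TGF-β. With siHoxc8, Sec61g (log2 fold change 1.69 ± 0.14 SE, adjusted p = 9.72e-05), Ssr2 (log2 fold change 1.17 ± 0.11 SE, adjusted p = 0.000186) and Sec61b (log2 fold change 0.81 ± 0.12 SE, adjusted p = 0.00153) were above control, and each of these 7 calls was made under all alternatives. The MetR and siHoxc8 comparisons share their control libraries, and no relation between them was computed.

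The 5 genes whose promoters hold TGACGTGG can be read side by side. Because the motif was chosen with expression results known, the counts for these 5 genes are descriptions and no test of the motif. With MetR against TGF-β, 4 were lowered, where the share lowered was 35.3% of the members and 19.0% of all genes, and Srp19 gave a log2 fold change of 0.04 ± 0.15 SE, adjusted p = 0.827. The 4 were Sec23a at -0.71 ± 0.09, Kdelr3 at -0.89 ± 0.12, Copa at -0.64 ± 0.08 and Copb1 at -0.35 ± 0.10 on the log2 scale. With siHoxc8 against TGF-β, 3 were raised, where the share raised was 35.3% of the members and 28.1% of all genes: Sec23a at 0.71 ± 0.09, Kdelr3 at 0.57 ± 0.12 and Copb1 at 0.35 ± 0.10, while Copa gave a log2 fold change of -0.11 ± 0.08 SE, adjusted p = 0.338. That of Srp19 was 0.35 ± 0.15 SE, adjusted p = 0.0985. Srp19 itself was at 32.6 and 42.00 FPKM with MetR, 45.7 and 46.2 FPKM with siHoxc8, 31.9 and 40.4 FPKM with TGF-β and 34.2 and 32.3 FPKM in control libraries. TGF-β alone against control called none of the 5. Both comparisons use the same TGF-β libraries, the calls that ended are given above with their genes, and binding at these sites was not tested.

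Partners of these genes outside the symbols used were counted from lists of 131 tested genes. With MetR against TGF-β, 37 were lowered (28.2%, against 19.0% of all tested genes) and 35 raised (26.7%, against 34.8%). With siHoxc8 against TGF-β, 17 were lowered (12.98%, against 15.7%) and 41 raised (31.3%, against 28.1%), shares near those of all genes. With TGF-β against control, 26 were lowered (19.8%, against 28.6%) and 15 raised (11.5%, against 10.3%). Of 11 subunits of the oligosaccharyltransferase, which adds sugar chains to proteins entering through Sec61, 8 were lowered with MetR (72.7%, against 19.0% of all genes) and none raised (34.8% of all genes). With only the MetR and TGF-β libraries fitted, 4 were lowered, and without MetR replicate 1, 1 was raised. The largest falls were those of Ost4 (log2 fold change -1.63 ± 0.15 SE, adjusted p = 0.000186), Krtcap2 (log2 fold change -1.45 ± 0.15 SE, adjusted p = 0.000274), Dad1 (log2 fold change -1.11 ± 0.11 SE, adjusted p = 0.000259) and Ostc (log2 fold change -0.86 ± 0.11 SE, adjusted p = 0.000645). Ost4 was at 79.7 and 64.5 FPKM with MetR, 159 and 147 FPKM with siHoxc8, 201 and 248 FPKM with TGF-β and 155 and 139 FPKM in control libraries. With siHoxc8 against TGF-β, 2 of the 11 were raised (18.2%, against 28.1% of all genes) and 3 lowered (27.3%, against 15.7%), or 1 and 1 without either siHoxc8 library, and 1 lowered without TGF-β replicate 2, with Ostc at a log2 fold change of 1.04 ± 0.11 SE, adjusted p = 0.000352. Of 11 genes of the Arf cycle and the remaining COPI subunits, 6 were lowered with MetR (54.5%, against 19.0% of all genes) and none raised (34.8% of all genes), and 4 to 8 were lowered under the alternatives, with 1 raised under quantile normalization or without MetR replicate 1. The falls were led by the GTPase Arf4 (log2 fold change -0.76 ± 0.14 SE, adjusted p = 0.00294), the Arf inactivators Arfgap3 (log2 fold change -0.61 ± 0.13 SE, adjusted p = 0.00542) and Arfgap1 (log2 fold change -0.57 ± 0.08 SE, adjusted p = 0.00107) and the δ subunit Arcn1 (log2 fold change -0.54 ± 0.09 SE, adjusted p = 0.00231). Arcn1 was at 63.6 and 72.1 FPKM with MetR, 112 and 107 FPKM with siHoxc8, 99.03 and 99.1 FPKM with TGF-β and 95.8 and 95.3 FPKM in control. The named MetR calls of both lists were made under all 16 alternatives.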

How the data were processed

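The authors deposited 1 table of FPKM values per gene symbol, which covers the 8 RNA-seq libraries (per the labels). The submitters' processing notes list the build rn6 with featureCounts, Bowtie2 2.3.5.1, Trim Galore and deepTools, without roles. The annotation, the strand setting and the treatment of reads shared by near-identical genes were not given in the sources used here. Whole reads were recovered from the steps in the values for 100.0% of the 19435 genes above 0 (tolerance 0.02 reads), 15118113 to 20146870 per library, which limits precision for low genes. Values were taken as log2(FPKM + 1) and compared in R 4.3.3 by limma 3.58.1, over all 8 libraries with 1 coefficient per group and variances moderated with a trend, so all groups share 1 estimate of the spread (4 residual and 3.47 prior degrees of freedom). Fold changes on this scale understate those of low genes. Two-sided p-values were adjusted (Benjamini-Hochberg) over 12315 genes within each of 5 comparisons. Among called members at 5 FPKM or more in the higher group, up to 8 rises and 8 falls per main comparison were named, with paralogues whatever their result, and other members, such as those that complete a role, were chosen after their values were seen. Members, lists, motifs and rules were chosen with earlier results of these data known. Sequences are from RefSeq (GRCr8), matched by symbol and with no coordinates converted. The fit was tested on simulated data.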

Additional observations from a re-analysis of the deposited data

How the results depend on the processing

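Calls of single members were recomputed under 16 alternatives, 2 of them added after seeing the data, quantile normalization and limma-voom on the recovered reads. An edgeR count test, intended at the outset, was not run, because the deposited values are FPKM. Of 4070 single results, 3734 kept their side of the threshold, 183 lost it, 153 gained it and none of those called changed sign. Under median ratio rescaling, TGF-β against control gave 20 raised and 2 lowered members with a median log2 fold change of 0.28. Against TGF-β it gave 33 lowered and a median of -0.40 with MetR, and 10 raised, 8 lowered and a median of 0.034 with siHoxc8. It changed the split of all tested genes from 1269 raised and 3523 lowered to 2350 and 2092 for TGF-β against control, from 4289 and 2345 to 3136 and 3281 for MetR against TGF-β, and from 3460 and 1934 to 2574 and 2743 for siHoxc8 against TGF-β. Quantile normalization gave 1 lowered member with TGF-β, where 17.1% of all genes were lowered. It gave 4 lowered with siHoxc8 against TGF-β, where 21.7% of all genes were lowered. Fitting only siHoxc8 and control libraries gave 31 raised and 8 lowered. The cause of these moves was not tested.

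Leaving out each library in turn gave, for TGF-β against control, 1 to 9 raised and 1 to 8 lowered members. It gave a median of -0.34 to -0.12 for MetR against TGF-β, 6 to 22 raised for siHoxc8 against TGF-β, 2 to 10 raised for MetR against control and 13 to 24 raised for siHoxc8 against control. Omitting a library leaves its group with 1, assumed to vary like the others. With the replicate number as a block, raised and lowered members were 7 and 4 for TGF-β against control, 6 and 18 for MetR and 18 and 2 for siHoxc8 against TGF-β, and 5 and 15 for MetR and 21 and 4 for siHoxc8 against control. The labels do not say that numbers pair libraries, and deviations of same-numbered libraries correlated at -0.02 to 0.20. Counting error weighs on members with few reads, such as Srp14.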

Other observations

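Other lists of the secretory route were mixed. The shares of all tested genes to read them against were 34.8% raised and 19.0% lowered in MetR against TGF-β libraries, and 28.1% raised and 15.7% lowered in siHoxc8 against TGF-β libraries. Among 27 partners in targeting and translocation, 10 were raised (37.0%) and 4 lowered (14.8%) with MetR, and 11 raised (40.7%) and 1 lowered (3.70%) with siHoxc8. Hspa5, the main ER chaperone, was raised with MetR (log2 fold change 1.34 ± 0.22 SE, adjusted p = 0.00176). Of 26 genes of ER exit sites and large cargo export, 6 were raised (23.1%) and 5 lowered (19.2%) with MetR, and 8 raised (30.8%) and 5 lowered (19.2%) with siHoxc8. Of 19 cargo receptors and cycling proteins, 4 were raised (21.1%) and 5 lowered (26.3%) with MetR, and 3 raised (15.8%) and 3 lowered (15.8%) with siHoxc8. Of 25 genes of vesicle tethering and fusion, 9 were raised (36%) and 6 lowered (24%) with MetR, and 10 raised (40%) and 2 lowered (8%) with siHoxc8.

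Of 12 tested transcription factors and sensors known to act on secretory genes, 6 were raised (50%, against 34.8% of all genes) and 3 lowered (25%, against 19.0%) in MetR against TGF-β libraries. The largest rises were those of Ddit3 (log2 fold change 1.57 ± 0.14 SE, adjusted p = 0.000190), Ern1 (log2 fold change 1.31 ± 0.24 SE, adjusted p = 0.00323), Atf6 (log2 fold change 1.20 ± 0.14 SE, adjusted p = 0.000527) and Atf4 (log2 fold change 1.07 ± 0.15 SE, adjusted p = 0.00100). Atf6 was at 45.4 and 58.7 FPKM with MetR, 36.3 and 37.7 FPKM with siHoxc8, 24.2 and 19.96 FPKM with TGF-β and 31.7 and 33.4 FPKM in control libraries. The 3 lowered genes, named after their values were seen, were Creb3l1 (log2 fold change -0.98 ± 0.19 SE, adjusted p = 0.00440), Creb3 (log2 fold change -0.51 ± 0.11 SE, adjusted p = 0.00646) and Xbp1 (log2 fold change -0.37 ± 0.13 SE, adjusted p = 0.0406). Creb3l1, a membrane-bound factor that acts on secretory and collagen genes, was at 90.9 and 57.1 FPKM with MetR, 97.2 and 106 FPKM with siHoxc8, 149 and 137 FPKM with TGF-β and 111 and 117 FPKM in control. With siHoxc8 against TGF-β, 5 were raised (41.7%, against 28.1% of all genes) and 2 lowered (16.7%, against 15.7%), the largest changes being those of Creb3 (log2 fold change -1.01 ± 0.11 SE, adjusted p = 0.000436), Xbp1 (log2 fold change 0.77 ± 0.13 SE, adjusted p = 0.00244), Atf6 (log2 fold change 0.73 ± 0.14 SE, adjusted p = 0.00558) and Tfe3 (log2 fold change 0.61 ± 0.12 SE, adjusted p = 0.00473). Xbp1 was at 70.8 and 88.3 FPKM with MetR, 178 and 173 FPKM with siHoxc8, 95.1 and 110.0 FPKM with TGF-β and 93.3 and 92.3 FPKM in control. The Xbp1 call with MetR ended under 8 of the 16 alternatives, among them leaving out TGF-β replicate 2, MetR replicate 1, either control or either siHoxc8 library (adjusted p = 0.0671 to 0.182), and the Creb3 call with MetR ended with only these 2 groups fitted (adjusted p = 0.0537). With siHoxc8, 3 were raised under median ratio rescaling and without TGF-β replicate 1, either control or either siHoxc8 library. These are transcript levels, from which the cleavage and splicing that activate ATF6 and XBP1 cannot be read.

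Members were more often higher in the second replicate of TGF-β, for 38 of 51 with a median log2 difference of 0.19, and in the second replicate of MetR, for 31 of 51 with a median of 0.13. Over all tested genes the second replicate was higher for 54.8% with TGF-β (median 0.03) and for 58.6% with MetR (median 0.07). The members' share with MetR was thus near that of all genes.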
